A study of Mus musculus with 4 samples.

Results

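Cycling CD8 T cells are the CD8 T cells of these tumors that carried transcripts of the proliferation genes Mki67 and Top2a. They were chosen by raw counts of unique molecular identifiers (UMIs, each standing for 1 captured transcript molecule). Kept barcodes had 300 or more genes, 500 or more UMIs and no more than 20% of UMIs from mitochondrial genes. On top of that, members had at least 2 UMIs of Cd3d, Cd3e and Cd3g together, at least 1 UMI of Cd8a and Cd8b1 together, 0 of Cd4, 0 of Foxp3, at most 2 of C1qa, C1qb and C1qc together, and at least 2 of Mki67 and Top2a together. The rule kept 484 of 56088 barcodes, out of 2313 cells that passed the same CD8 T cell limits with any count of Mki67 and Top2a. The 1445 of these with 0 UMIs of Mki67 and Top2a are called noncycling below, and the 384 with 1 UMI belong to neither class.

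The study set mice lacking Lrrc25 (Lrrc25-/-) against wild-type (WT) mice, bearing either of 2 transplanted tumor lines: B16F10, a melanoma, collected at day 14, and MC38, a colon carcinoma, collected at day 26. There were 4 libraries, Lrrc25-/- and WT for each tumor, and each was made from 100 mm3 of tumor from each of 3 mice, pooled before dissociation. The labels list no treatment, and the tumor cells were transplanted lines, so the genotype label refers to the host. Cells captured on beads against CD45, the pan-leukocyte antigen, were mixed back with unsorted suspension before droplet capture, so shares of all barcodes follow that mixing as well as the tumor. With 1 pooled library for each genotype and tumor model, no test between genotypes is possible within a model, and the spread between mice is not seen.

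CD8 T cells recognise peptides on class I MHC molecules and kill the cells that present them, chiefly with perforin and granzymes. A stimulated CD8 T cell divides many times. Before division it passes S phase, in which DNA is copied and genes of the replication machinery are used, and then G2 and mitosis (G2/M), in which genes of the spindle and the chromosome scaffold are used. Mki67 encodes a protein of the surface of mitotic chromosomes and Top2a encodes the topoisomerase that untangles copied DNA, and both transcripts peak late in the cycle. In tumors, dividing CD8 T cells include cells recently activated and cells that keep dividing while they carry inhibitory receptors such as PD-1.

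The libraries held 9799 to 17286 barcodes that passed the limits on genes, UMIs and mitochondrial share, with a median of 4391 to 9906 UMIs. Lrrc25, the targeted gene, stood at 2.16 CPM (UMIs of a gene scaled to 1e6 UMIs of the sum) in Lrrc25-/- and 46.4 CPM in WT B16F10 libraries, and at 1.22 CPM in Lrrc25-/- and 47.7 CPM in WT MC38 libraries, over all kept barcodes. Among cycling CD8 T cells it gave 1 and 1 UMIs in the Lrrc25-/- libraries of B16F10 and MC38, and 4 and 6 UMIs in the WT ones. Xist, a transcript of female cells, stood at 461 CPM in Lrrc25-/- and 396 CPM in WT MC38 libraries, and at 0.0741 CPM in Lrrc25-/- and 0.0507 CPM in WT B16F10 libraries. Tumor model, day, and this difference in host sex therefore cannot be told apart. Libraries shared 84 to 215 barcode sequences pair by pair, and 0 of them were cycling CD8 T cells in both.

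The cycling CD8 T cells numbered 75 in Lrrc25-/- and 31 in WT B16F10 tumors, and 176 in Lrrc25-/- and 202 in WT MC38 tumors. Both Cd8a and Cd8b1, the chains of the CD8 coreceptor, had UMIs in 84.0% of members of Lrrc25-/- and 64.5% of WT B16F10 tumors, and in 86.4% of Lrrc25-/- and 84.2% of WT MC38 tumors, although 1 UMI of either was enough. Mki67 and Top2a were both present in 66.7% of members of Lrrc25-/- and 61.3% of WT B16F10 tumors, and in 73.3% of Lrrc25-/- and 84.2% of WT MC38 tumors. The median sum of the pair was 4 and 4 UMIs in Lrrc25-/- and WT B16F10 members, and 7 and 10 UMIs in Lrrc25-/- and WT MC38 members.

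Members had more UMIs than noncycling cells. Their median was 11145 UMIs in Lrrc25-/- and 13985 UMIs in WT B16F10 tumors, and 7207 UMIs in Lrrc25-/- and 6710 UMIs in WT MC38 tumors, against 2738 (Lrrc25-/- B16F10), 4073 (WT B16F10), 3838 (Lrrc25-/- MC38) and 3695.5 (WT MC38) UMIs in noncycling CD8 T cells. A cell with more UMIs reaches the limit of 2 more easily, so the rule itself favours deep cells. Scrublet, which scores barcodes by their likeness to simulated pairs of cells, placed 6.67% of members of Lrrc25-/- and 3.23% of WT B16F10 tumors, and 7.39% of Lrrc25-/- and 7.43% of WT MC38 tumors, among the highest scores of their library. These cells were kept, and an alternative leaves them out.

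Transcripts of other cells were present and differed between libraries. The 10 macrophage markers summed to 619.8 CPM in Lrrc25-/- and 1176 CPM in WT B16F10 tumors, and 667 CPM in Lrrc25-/- and 307 CPM in WT MC38 tumors in cycling cells, with 0 of the 10 absent in any library. The same sum in noncycling cells was 1976 CPM in Lrrc25-/- and 2189 CPM in WT B16F10 tumors, and 814 CPM in Lrrc25-/- and 371 CPM in WT MC38 tumors. The 8 melanoma markers summed to 732 CPM in Lrrc25-/- and 1819 CPM in WT B16F10 tumors, and 9.18 CPM in Lrrc25-/- and 9.69 CPM in WT MC38 tumors, and 6 of the 8 were at 0 in both MC38 libraries. The 8 neutrophil markers summed to 234 CPM in Lrrc25-/- and 2.32 CPM in WT B16F10 tumors, and 37.4 CPM in Lrrc25-/- and 6.06 CPM in WT MC38 tumors, with 7 of the 8 at 0 in WT B16F10. The limit of 2 C1q UMIs per cell holds for both classes, but it allows a smaller share of C1q UMIs in the deeper cycling cells. The macrophage sums of the 2 classes are therefore not capped at the same level. How far this RNA contributes to the differences below was not tested, and the affected genes are pointed out where they appear.

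The share of CD8 T cells that cycled was lower in Lrrc25-/- than in WT MC38 tumors. In MC38, 176 of 850 CD8 T cells cycled in Lrrc25-/- tumors, or 20.7% (exact 95% binomial interval 18.03 to 23.6%), against 202 of 618 in WT tumors, or 32.7% (29.0 to 36.5%). The ratio of shares was 0.633 (95% interval 0.533 to 0.754). In B16F10, 75 of 633 cycled in Lrrc25-/- tumors, or 11.8% (9.43 to 14.6%), against 31 of 212 in WT tumors, or 14.6% (10.2 to 20.1%), and the ratio of 0.810 (0.549 to 1.19) had an interval that includes 1. These intervals, and all others here, cover counting error only and not the spread between mice or libraries. Intervals of summed UMIs and of their ratios also leave out the spread between cells. Neutrophils, which do not divide, gave the background of the rule. They were taken as barcodes with a Csf3r UMI, at least 10 UMIs of S100a8 and S100a9 together and 0 of CD3 and C1q genes, a gate chosen after the data were seen. In them, 0 of 112 in Lrrc25-/- and 0 of 14 in WT B16F10 libraries, and 0 of 65 in Lrrc25-/- and 0 of 44 in WT MC38 libraries reached 2 UMIs of Mki67 and Top2a. The exact 95% intervals allow up to 3.24% (Lrrc25-/- B16F10), 23.2% (WT B16F10), 5.52% (Lrrc25-/- MC38) and 8.04% (WT MC38). Their median depth was lower, at 1282.5 to 1378 UMIs, against 3136 to 4813 UMIs in all CD8 T cells.

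The order of the MC38 shares held with Mki67 and Top2a counted at equal depth. The CD8 T cell limits were still applied at full depth. With every cell thinned to 1000 UMIs and shallower cells left out, 73 of 844 CD8 T cells, or 8.65%, reached 2 UMIs of the pair in Lrrc25-/- MC38 tumors, against 86 of 615, or 14.0%, in WT ones. In B16F10 the thinned shares were 9 of 618, or 1.46%, in Lrrc25-/- tumors and 3 of 208, or 1.44%, in WT tumors, and such counts show no order. The B16F10 ratio also turned round under a stricter limit on macrophage RNA. Among cells with 0 C1q UMIs, 30 of 306 CD8 T cells cycled in Lrrc25-/- B16F10 tumors and 4 of 87 in WT ones, a ratio of 2.13 (0.772 to 5.89), while in MC38 the ratio was 0.522 (0.402 to 0.677).

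Counted against all kept barcodes, cycling CD8 T cells stood at 0.610% in Lrrc25-/- and 0.316% in WT B16F10 libraries, a ratio of 1.93 (1.27 to 2.93). In MC38 they stood at 1.05% in the Lrrc25-/- library and 1.17% in the WT library, a ratio of 0.902 (0.737 to 1.10). All CD8 T cells together were 5.15% of barcodes in Lrrc25-/- and 2.16% in WT B16F10 libraries, a ratio of 2.38 (2.04 to 2.77), and 5.09% in Lrrc25-/- and 3.58% in WT MC38 libraries, a ratio of 1.42 (1.29 to 1.58). In MC38, then, the Lrrc25-/- library held more CD8 T cells per barcode and a smaller cycling share of them. In B16F10 it held more of both kinds per barcode.

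Other T cells of the same libraries were counted by the same limit on Mki67 and Top2a. Conventional CD4 T cells cycled in 12.3% (13 of 106) in Lrrc25-/- and 15.1% (8 of 53) in WT B16F10 tumors, and in 12.7% (13 of 102) in Lrrc25-/- and 22.4% (13 of 58) in WT MC38 tumors. Regulatory T cells, which carry the transcription factor Foxp3 and restrain other T cells, cycled in 25.9% (22 of 85) in Lrrc25-/- and 47.9% (23 of 48) in WT B16F10 tumors, and in 25.4% (29 of 114) in Lrrc25-/- and 43.75% (21 of 48) in WT MC38 tumors. The ratio of Lrrc25-/- to WT shares in regulatory T cells was 0.540 in B16F10 (0.339 to 0.860), and the MC38 ratio was 0.581 (0.371 to 0.911). The lower cycling share of the Lrrc25-/- MC38 library was thus not seen in CD8 T cells alone. With regulatory T cells thinned to 1000 UMIs the ratio was 0.424 in B16F10 (0.0989 to 1.81) and 0.333 in MC38 (0.132 to 0.843). Among those with 0 C1q UMIs it was 0.547 in B16F10 (0.184 to 1.62) and 0.629 in MC38 (0.318 to 1.25), and both intervals include 1. Whether the ratios differ between cell types was not tested.

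**Figure D1:**
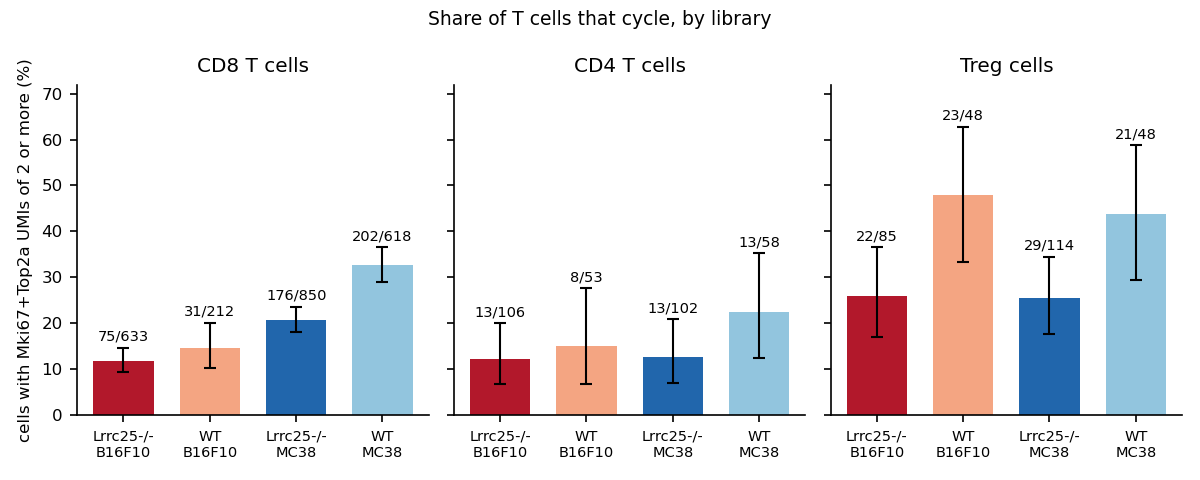
Bars give the percentage of CD8 T, conventional CD4 T and regulatory T cells with at least 2 UMIs of Mki67 and Top2a in each of the 4 libraries, with exact 95% binomial intervals and the cell counts above. In MC38 the CD8 bar is lower for Lrrc25-/- (20.7%) than for WT (32.7%), and in B16F10 the intervals of the 2 CD8 bars overlap.

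The limit of 2 UMIs divides a gradient. Between members just inside it, with a sum of 2, and cells just outside it, with a sum of 1, the summed level of 40 G2/M genes was 3439 CPM in Lrrc25-/- and 3999.6 CPM in WT B16F10 tumors, and 1241 CPM in Lrrc25-/- and 1275 CPM in WT MC38 tumors inside, against 2345 CPM in Lrrc25-/- and 2479 CPM in WT B16F10 tumors, and 978 CPM in Lrrc25-/- and 1142 CPM in WT MC38 tumors outside. In members with a sum of 3 or more it was 6029 CPM in Lrrc25-/- and 5202 CPM in WT B16F10 tumors, and 6599.6 CPM in Lrrc25-/- and 7891 CPM in WT MC38 tumors. In both MC38 libraries the members at the limit were thus much closer to the cells outside it than to the members above it, while in B16F10 the level climbed more evenly. Members at the limit numbered 20 in Lrrc25-/- and 8 in WT B16F10 tumors, and 49 in Lrrc25-/- and 32 in WT MC38 tumors.

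Across the same gradient, 35 S phase genes climbed in all 4 libraries and chemokine and naive or memory genes declined. The S phase sum was 3530.1 CPM in Lrrc25-/- and 2717 CPM in WT B16F10 tumors, and 3437 CPM in Lrrc25-/- and 3651 CPM in WT MC38 tumors in members with 3 or more UMIs, against 725 CPM in Lrrc25-/- and 859.6 CPM in WT B16F10 tumors, and 765 CPM in Lrrc25-/- and 900.1 CPM in WT MC38 tumors in cells with 0. The summed level of 10 chemokine and chemokine receptor genes was 4277 CPM in Lrrc25-/- and 3632 CPM in WT B16F10 tumors, and 1319 CPM in Lrrc25-/- and 722 CPM in WT MC38 tumors in members with 3 or more, against 11012 CPM in Lrrc25-/- and 8179 CPM in WT B16F10 tumors, and 2946 CPM in Lrrc25-/- and 1163 CPM in WT MC38 tumors in cells with 0. The naive and memory genes summed to 885 CPM in Lrrc25-/- and 994 CPM in WT B16F10 tumors, and 1759.5 CPM in Lrrc25-/- and 1346 CPM in WT MC38 tumors in members with 3 or more, against 2048 CPM in Lrrc25-/- and 1618 CPM in WT B16F10 tumors, and 2919 CPM in Lrrc25-/- and 1877 CPM in WT MC38 tumors in cells with 0. The chemokine sum was lowest in the members with 3 or more UMIs in every library, as was the naive and memory sum except in WT B16F10, where the 8 members with a sum of 2 stood at 936 CPM. The macrophage sum was also lowest there, at 431 CPM in Lrrc25-/- and 776 CPM in WT B16F10 tumors, and 479.6 CPM in Lrrc25-/- and 282 CPM in WT MC38 tumors in members with 3 or more. The limit of 2 C1q UMIs allows a smaller share of C1q UMIs in deeper cells, and the part of macrophage RNA in these declines was not tested.

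**Figure D2:**
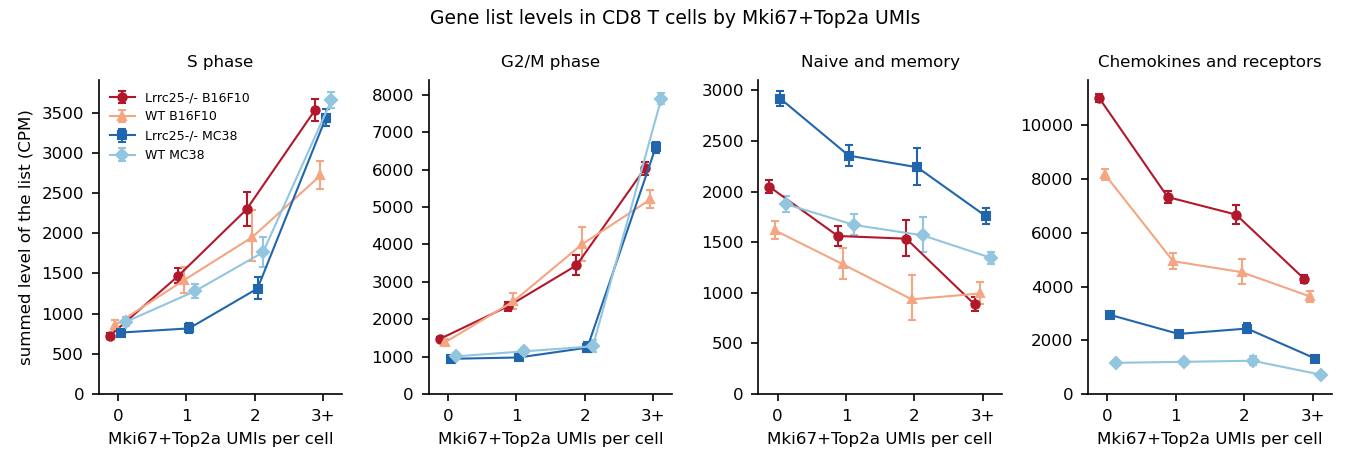
Summed levels of gene lists (CPM, linear axis from 0, exact 95% Poisson intervals) are plotted against the Mki67 and Top2a UMIs of the cells (0, 1, 2, and 3 or more), 1 line per library. The S and G2/M lists climb in all 4 libraries, and in MC38 the G2/M list climbs mainly between 2 and 3 or more UMIs.

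Members held UMIs of both phases. Noncycling cells did too, with 1377 S phase and 2793 G2/M UMIs in Lrrc25-/- B16F10 tumors, the library given here. The rule also uses 2 transcripts that peak late in the cycle. The ratio and the split of cells below therefore do not give the share of cells in each phase. The ratio of S phase to G2/M UMIs, summed over members, was 0.596 (0.571 to 0.623) in Lrrc25-/- and 0.517 (0.481 to 0.556) in WT B16F10 tumors, and 0.543 (0.523 to 0.564) in Lrrc25-/- and 0.483 (0.467 to 0.498) in WT MC38 tumors. It was higher in Lrrc25-/- than in WT tumors of both models, and the counting intervals did not overlap in either. With cells thinned to 1000 UMIs they overlapped in both, at 0.547 (0.464 to 0.644) in Lrrc25-/- and 0.484 (0.370 to 0.635) in WT B16F10 tumors, and 0.581 (0.520 to 0.649) in Lrrc25-/- and 0.487 (0.444 to 0.534) in WT MC38 tumors. Cells with more S phase than G2/M UMIs made up 30.7% of members (23 of 75) in Lrrc25-/- and 19.4% (6 of 31) in WT B16F10 tumors, and 27.3% (48 of 176) in Lrrc25-/- and 27.2% (55 of 202) in WT MC38 tumors. The split by cells differed between the MC38 genotypes by less than its counting error.

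Cells leaning to S phase and cells leaning to G2/M were compared within the members, as a description with no test. Pcna, the sliding clamp of DNA replication, stood at 434 (Lrrc25-/- B16F10), 517 (WT B16F10), 481 (Lrrc25-/- MC38) and 465 (WT MC38) CPM in S-leaning cells, against 293 (Lrrc25-/- B16F10), 306 (WT B16F10), 261 (Lrrc25-/- MC38) and 335 (WT MC38) CPM in G2/M-leaning cells. Ube2c, an enzyme that marks mitotic proteins for destruction, stood at 35.3 (Lrrc25-/- B16F10), 80.8 (WT B16F10), 12.5 (Lrrc25-/- MC38) and 2.63 (WT MC38) CPM in S-leaning cells, against 471 (Lrrc25-/- B16F10), 387 (WT B16F10), 168 (Lrrc25-/- MC38) and 167 (WT MC38) CPM in G2/M-leaning cells. Both are genes of the lists that made the split. Outside those lists, Nkg7, a cytotoxic granule gene, stood at 1689 (Lrrc25-/- B16F10), 1891 (WT B16F10), 1637 (Lrrc25-/- MC38) and 1424 (WT MC38) CPM in S-leaning cells, against 1889 (Lrrc25-/- B16F10), 1206 (WT B16F10), 1524 (Lrrc25-/- MC38) and 1253 (WT MC38) CPM in G2/M-leaning cells. The granzyme Gzmc was uneven, at 909 (Lrrc25-/- B16F10), 0 (WT B16F10), 1484 (Lrrc25-/- MC38) and 701 (WT MC38) CPM in S-leaning cells, against 71.3 (Lrrc25-/- B16F10), 89.4 (WT B16F10), 529 (Lrrc25-/- MC38) and 1108 (WT MC38) CPM in G2/M-leaning cells, and no common order held over the libraries.

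The genes of the 2 phases differ in the short motifs near their starts, and 4 promoters are shown as examples beside the expression values. They were picked by log2 fold change over noncycling cells, only from list genes whose promoter holds the motif. Their motifs are therefore there by choice, and the shares over each list are given below. Promoters are RefSeq sequences of build GRCm38.p6 that run from 250 bases before to 50 bases after the annotated start of a gene. The S phase pair is Cdc6 (chr11:98907901-98908200, plus strand), which loads the replicative helicase, and Dtl (chr1:191575495-191575794, minus strand), part of a ubiquitin ligase that limits replication to once a cycle. The G2/M pair is Hmmr (chr11:40733388-40733687, minus strand), a spindle protein, and Cenpf (chr1:189688037-189688336, minus strand), a kinetochore protein. Capitals mark the E2F motif in the S phase pair and the CHR motif in the G2/M pair, each printed from 5′ to 3′ on the gene's strand.
Cdc6: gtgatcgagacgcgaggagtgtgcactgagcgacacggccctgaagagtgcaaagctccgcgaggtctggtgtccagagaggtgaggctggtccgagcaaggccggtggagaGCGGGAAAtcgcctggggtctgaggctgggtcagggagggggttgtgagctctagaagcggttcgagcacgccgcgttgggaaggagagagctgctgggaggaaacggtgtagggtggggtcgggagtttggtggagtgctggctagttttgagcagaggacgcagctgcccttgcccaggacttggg
Dtl: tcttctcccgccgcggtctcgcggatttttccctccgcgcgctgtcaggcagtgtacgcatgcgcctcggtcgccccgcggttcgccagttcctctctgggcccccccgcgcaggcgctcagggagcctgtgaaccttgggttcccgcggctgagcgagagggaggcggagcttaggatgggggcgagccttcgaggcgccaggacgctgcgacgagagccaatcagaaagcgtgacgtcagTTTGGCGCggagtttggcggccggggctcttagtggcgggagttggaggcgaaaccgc
Hmmr: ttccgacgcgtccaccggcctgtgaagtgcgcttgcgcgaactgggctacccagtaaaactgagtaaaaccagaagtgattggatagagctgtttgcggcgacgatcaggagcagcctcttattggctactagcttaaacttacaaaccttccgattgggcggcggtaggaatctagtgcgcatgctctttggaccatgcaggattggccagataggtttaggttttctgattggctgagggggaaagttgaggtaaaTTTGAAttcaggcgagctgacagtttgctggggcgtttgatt
Cenpf: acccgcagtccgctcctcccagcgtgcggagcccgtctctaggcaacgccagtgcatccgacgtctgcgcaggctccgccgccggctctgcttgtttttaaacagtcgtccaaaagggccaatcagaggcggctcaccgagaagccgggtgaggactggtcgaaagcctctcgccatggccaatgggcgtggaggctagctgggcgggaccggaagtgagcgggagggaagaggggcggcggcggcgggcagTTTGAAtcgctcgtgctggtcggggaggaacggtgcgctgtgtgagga

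The E2F motif, searched as TTTCCCGC or TTTGGCGC on both strands, was in 10 of the 29 S phase promoters found (34.5%) and in 0 of the 33 G2/M promoters found, against 441 of all 27025 promoters of the table (1.63%). The CHR motif, searched as TTTGAA or TTCGAA on both strands, was in 26 of the 33 G2/M promoters (78.8%) and 4 of the 29 S phase promoters (13.8%), against 5254 of all promoters (19.4%). CCAAT, searched on both strands, was in 26 of the 33 G2/M promoters (78.8%) and 17 of the 29 S phase promoters (58.6%), against 10248 of all promoters (37.9%). In the printed promoters the first match lies at position -138 in Cdc6, -8 in Dtl, 9 in Hmmr and 3 in Cenpf, counted from the annotated start. E2F factors bind the first motif in replication genes, and the CHR is bound by the complexes that time late cell cycle genes. None of these letter strings contains another, and genes were matched to the table by symbol. A match is a description of letters, and binding was not measured here.

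Cycling and noncycling CD8 T cells of the same library were set side by side, with UMIs summed per library and class and library kept as a block in edgeR's quasi-likelihood test (8 sums, 3 residual degrees of freedom). Of 8426 genes tested, 1793 (21.3%) passed an adjusted p of 0.05 after Benjamini-Hochberg adjustment, 990 (11.7%) higher and 803 (9.53%) lower in cycling cells, and the median log2 fold change was -0.06. Because Mki67 and Top2a chose the cells, the cell cycle genes are given without a test. All 33 measured S phase genes and all 38 measured G2/M genes were higher in cycling cells, with median log2 fold changes of 2.15 and 3.46.

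Rrm2, the subunit of ribonucleotide reductase that is made for DNA synthesis, stood at 132 (Lrrc25-/- B16F10), 104 (WT B16F10), 98.2 (Lrrc25-/- MC38) and 102 (WT MC38) CPM in cycling cells, against 6.84 (Lrrc25-/- B16F10), 13.6 (WT B16F10), 4.003 (Lrrc25-/- MC38) and 5.65 (WT MC38) CPM in noncycling cells. Ccna2, the cyclin of S phase and G2, stood at 111 (Lrrc25-/- B16F10), 95.1 (WT B16F10), 108 (Lrrc25-/- MC38) and 122 (WT MC38) CPM in cycling cells, against 3.16 (Lrrc25-/- B16F10), 6.18 (WT B16F10), 2.67 (Lrrc25-/- MC38) and 0.807 (WT MC38) CPM in noncycling cells. In both genes the lowest cycling library was several times above the highest noncycling one. The 4 genes whose promoters are printed had log2 fold changes of 4.04 (Cdc6), 2.39 (Dtl), 6.30 (Hmmr) and 5.14 (Cenpf), and Clspn and Bub1, which act in the replication checkpoint and at the spindle, had 4.31 (Clspn) and 5.08 (Bub1).

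Of 19 measured G1 cyclins, kinases, their inhibitors and E2F or pocket-protein genes, 8 rose and 2 fell (median log2 fold change 0.52). E2f2 and E2f1, activators of S phase genes, rose by log2 fold changes of 2.69 ± 0.31 (SE) and 1.67 ± 0.33 (SE). Rbl1, a pocket protein that restrains E2F factors, rose by 1.75 ± 0.27 (SE). Genes of this list also belong to the cell cycle by which the cells were chosen, so these counts and values are a description and not a test. Outside every list, the largest rises included replication-dependent histone genes, Hist1h2af (6.45), Hist1h3b (6.38) and Hist1h2ab (5.42), near-identical copies whose reads cannot be divided with certainty. Esco2, needed for the cohesion of sister chromatids, and E2f7, a repressor of the E2F family, had 6.2 and 5.20.

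Naive and memory genes were lower in cycling cells. Of 16 measured, 0 rose and 11 fell (median log2 fold change -1.03, against -0.06 over all genes tested, of which 9.53% fell). S1pr1, the receptor that lets T cells leave tissue, stood at 21.9 (Lrrc25-/- B16F10), 13.9 (WT B16F10), 11.3 (Lrrc25-/- MC38) and 4.85 (WT MC38) CPM in cycling cells, against 91.1 (Lrrc25-/- B16F10), 38.3 (WT B16F10), 27.6 (Lrrc25-/- MC38) and 5.65 (WT MC38) CPM in noncycling cells. Its log2 fold change was -1.5 ± 0.26 (SE), adjusted p = 0.00173 (edgeR, Benjamini-Hochberg), and it was lower in the cycling cells of all 4 libraries, although in WT MC38 the 2 levels were close. Satb1, a chromatin organiser of quiescent T cells, stood at 39.7 (Lrrc25-/- B16F10), 60.3 (WT B16F10), 145 (Lrrc25-/- MC38) and 83 (WT MC38) CPM in cycling cells, against 163 (Lrrc25-/- B16F10), 108 (WT B16F10), 375 (Lrrc25-/- MC38) and 161 (WT MC38) CPM in noncycling cells. Its log2 fold change was -1.34 ± 0.17 (SE), adjusted p = 0.000185 in the same edgeR test, with the cycling level the lower one in each library.

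Others of the list fell alike. Bcl2, which keeps resting lymphocytes alive, had -1.21 ± 0.20 (SE), adjusted p = 0.00144 (edgeR, Benjamini-Hochberg). Tcf7, Lef1, Bach2 and Il7r, transcription factors and the IL-7 receptor of memory cells, had log2 fold changes of -1.18, -1.17, -1.07 and -1.07, with edgeR adjusted p of 0.000858, 0.000412, 0.00154 and 0.00855. Ccr7, the receptor for lymph node chemokines, did not pass, at -0.10 ± 0.14 (SE), adjusted p = 0.652 (edgeR).

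Chemokine genes were also lower. Of 10 chemokine and chemokine receptor genes, 7 fell and 1 rose (median log2 fold change -0.70), where 9.53% of all genes tested fell. Ccl5, the T cell chemokine also called RANTES, stood at 2372 (Lrrc25-/- B16F10), 1784 (WT B16F10), 828 (Lrrc25-/- MC38) and 236 (WT MC38) CPM in cycling cells, against 8586 (Lrrc25-/- B16F10), 5207 (WT B16F10), 2028 (Lrrc25-/- MC38) and 597 (WT MC38) CPM in noncycling cells. Its log2 fold change was -1.53 ± 0.088 (SE), adjusted p = 8.54e-07 (edgeR, Benjamini-Hochberg), and it was lower in the cycling cells of every library. Cxcr3, the receptor for interferon-induced chemokines, stood at 40.8 (Lrrc25-/- B16F10), 27.8 (WT B16F10), 7.06 (Lrrc25-/- MC38) and 3.63 (WT MC38) CPM in cycling cells, against 124 (Lrrc25-/- B16F10), 92.8 (WT B16F10), 15.1 (Lrrc25-/- MC38) and 8.88 (WT MC38) CPM in noncycling cells, and its log2 fold change was -1.5 ± 0.20 (SE), adjusted p = 0.00024 (edgeR). Ccr2, a receptor for monocyte chemokines, fell by 0.95 ± 0.19 (SE) on the log2 scale. Xcl1, which draws cross-presenting dendritic cells, was the member that rose, by 0.74 ± 0.16 (SE), adjusted p = 0.00699 (edgeR).

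Cytotoxic genes fell or did not pass, where 9.53% of all genes tested fell. Of 13 measured, 0 rose and 4 fell (median -0.33): Gzme (-1.31 ± 0.18 (SE), adjusted p = 0.000372), Gzmd (-1.30 ± 0.26 (SE), adjusted p = 0.00504), Gzmc (-1.22 ± 0.34 (SE), adjusted p = 0.0266) and Fasl (-0.71 ± 0.17 (SE), adjusted p = 0.0116), all by edgeR with Benjamini-Hochberg adjustment. Gzmc to Gzmg are near-identical neighbours, so reads may be divided unevenly among them. Gzmb, the main killing granzyme, stood at 672 (Lrrc25-/- B16F10), 381 (WT B16F10), 635 (Lrrc25-/- MC38) and 683 (WT MC38) CPM in cycling cells, against 539 (Lrrc25-/- B16F10), 298 (WT B16F10), 812 (Lrrc25-/- MC38) and 908 (WT MC38) CPM in noncycling cells, and its log2 fold change over all libraries was -0.06 ± 0.15 (SE), adjusted p = 0.804 (edgeR). Prf1, perforin, stood at 90.9 (Lrrc25-/- B16F10), 53.4 (WT B16F10), 289 (Lrrc25-/- MC38) and 398 (WT MC38) CPM in cycling cells, against 62.1 (Lrrc25-/- B16F10), 40.8 (WT B16F10), 377 (Lrrc25-/- MC38) and 664 (WT MC38) CPM in noncycling cells, with -0.22 ± 0.21 (SE), adjusted p = 0.484 (edgeR). Neither was shown to differ between cycling and noncycling cells over the 4 libraries together.

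Checkpoint and exhaustion genes passed the test at about the share of all genes (21.3%). Of 12 measured checkpoint and exhaustion genes, 0 rose and 2 fell, Cd38 (-0.96 ± 0.28 (SE), adjusted p = 0.0303) and Entpd1 (-0.66 ± 0.16 (SE), adjusted p = 0.0117) by edgeR, both enzymes of the cell surface that consume nucleotides. Lag3 and Havcr2, inhibitory receptors, had -0.0016 ± 0.19 (SE), adjusted p = 0.997 and -0.43 ± 0.26 (SE), adjusted p = 0.266 (edgeR), so neither passed. Tox, a transcription factor of exhausted T cells, stood at 119 CPM in Lrrc25-/- and 53.4 CPM in WT B16F10 tumors, and 165 CPM in Lrrc25-/- and 297 CPM in WT MC38 tumors in cycling cells, with a log2 fold change over noncycling cells of 0.11 ± 0.17 (SE), adjusted p = 0.692 (edgeR). Tox had UMIs in 52.0% of members of Lrrc25-/- and 45.2% of WT B16F10 tumors, and in 51.1% of Lrrc25-/- and 77.7% of WT MC38 tumors, against 0 of the neutrophils described above in each library.

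Cytokine receptors, costimulatory receptors and transcription factors of effector cells moved down where they moved. Of 13 cytokine receptor genes 7 fell (median -0.44), among them Ifnar1 (-0.75), Il12rb2 (-0.59) and Il18rap (-0.53), receptor chains for type I interferon, IL-12 and IL-18. Of 10 costimulatory receptor genes 5 fell (median -0.43), with Cd28, the receptor for B7 molecules, at -0.55 ± 0.14 (SE), adjusted p = 0.0157 (edgeR). Of 12 effector transcription factors 5 fell (median -0.26), with Tbx21, which encodes T-bet, at -0.61 ± 0.15 (SE), adjusted p = 0.0134 and Runx3 at -0.48 ± 0.12 (SE), adjusted p = 0.0142 (edgeR). Of 13 early genes, switched on within minutes of a stimulus, 4 fell (median -0.33), led by the phosphatase Dusp2 at -1.01 ± 0.12 (SE), adjusted p = 0.000112 (edgeR). No member of these 4 lists rose, where 11.7% of all genes tested rose and 9.53% fell.

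Many metabolic genes rose, where 11.7% of all genes tested rose. Of 15 nucleotide and one-carbon synthesis genes 11 rose and 0 fell (median 1.04), of 18 respiratory chain genes 12 rose and 0 fell (median 0.43), and of 13 glycolysis genes 6 rose and 0 fell (median 0.30). Dtymk, which makes thymidine diphosphate for DNA, stood at 122 (Lrrc25-/- B16F10), 139 (WT B16F10), 78.4 (Lrrc25-/- MC38) and 74.5 (WT MC38) CPM in cycling cells, against 30.01 (Lrrc25-/- B16F10), 64.3 (WT B16F10), 35.6 (Lrrc25-/- MC38) and 33.1 (WT MC38) CPM in noncycling cells. Its log2 fold change was 1.35 ± 0.18 (SE), with the cycling level higher in each library. Genes of nucleotide synthesis serve the copying of DNA in the cell cycle by which the cells were chosen. The counts and values of that list are therefore a description and not a test. Cycs, cytochrome c, stood at 625 (Lrrc25-/- B16F10), 745 (WT B16F10), 240.1 (Lrrc25-/- MC38) and 277 (WT MC38) CPM in cycling cells, against 308 (Lrrc25-/- B16F10), 346 (WT B16F10), 149 (Lrrc25-/- MC38) and 200.2 (WT MC38) CPM in noncycling cells, with 0.80 ± 0.13 (SE), adjusted p = 0.00148 (edgeR). Ldha, lactate dehydrogenase, stood at 1569.9 (Lrrc25-/- B16F10), 1949 (WT B16F10), 659.6 (Lrrc25-/- MC38) and 696 (WT MC38) CPM in cycling cells, against 858 (Lrrc25-/- B16F10), 1145 (WT B16F10), 499.5 (Lrrc25-/- MC38) and 552 (WT MC38) CPM in noncycling cells, with 0.57 ± 0.12 (SE), adjusted p = 0.00547 (edgeR), again higher in the cycling cells of all 4 libraries.

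Interferon-stimulated genes also passed at about the share of all genes (21.3%). Of 12 measured, Ly6a, a surface antigen of activated lymphocytes, rose by 0.41 ± 0.13 (SE), adjusted p = 0.0365 (edgeR), and Ifi203 and Ifi209 fell (median -0.30). Of 9 macrophage markers tested 6 fell in cycling cells (median -0.94), where 9.53% of all genes tested fell. Among the most lowered genes outside the lists were Wfdc17 (-2.03), Ccl6 (-1.69) and S100a9 (-1.65), which myeloid cells use. The most lowered of all named genes were Tcp11l2 (-2.47) and Pde2a (-2.20), a phosphodiesterase. The lower levels of myeloid transcripts stand beside the deeper sequencing of cycling cells, in which the limit of 2 C1q UMIs allows a smaller share of C1q UMIs. The part of myeloid transcripts in the other falls was not tested.

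**Figure D3:**
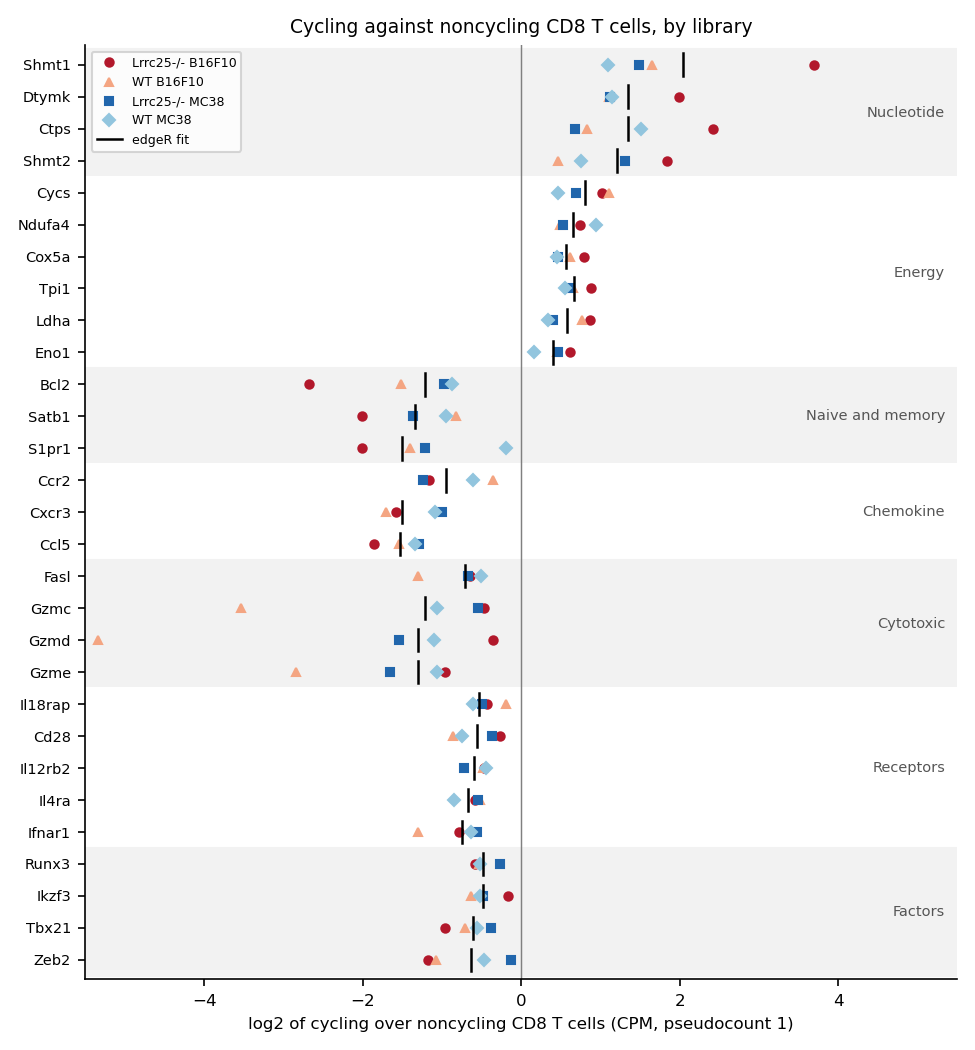
Points give the log2 ratio of cycling to noncycling CD8 T cells (CPM with a pseudocount of 1) in each of the 4 libraries for genes grouped by list, and black ticks give the edgeR fit. The nucleotide and energy genes lie above 0 and Ccl5, Cxcr3, Satb1 and Bcl2 below it in every library, and points of Gzmd and Gzme for WT B16F10, at 0 UMIs in cycling cells, depend on the pseudocount.

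The cycling-over-noncycling difference was not the same in both tumors. The interaction of cycling with tumor model was tested by edgeR on the same 8 sums (2 residual degrees of freedom), and 59 of 8426 genes (0.7%) passed, 51 (0.605%) with a higher and 8 (0.0949%) with a lower fold in MC38. Pdcd1, which encodes PD-1, stood at 176 (Lrrc25-/- B16F10), 107 (WT B16F10), 102 (Lrrc25-/- MC38) and 100.0 (WT MC38) CPM in cycling cells, against 91.1 (Lrrc25-/- B16F10), 61.8 (WT B16F10), 125 (Lrrc25-/- MC38) and 131 (WT MC38) CPM in noncycling cells. It was higher in cycling cells in both B16F10 libraries and lower in both MC38 libraries, and the difference of log2 folds was -1.33 ± 0.23 (SE), adjusted p = 0.0134 (edgeR). Tnfrsf9, the costimulatory receptor 4-1BB, stood at 630.3 (Lrrc25-/- B16F10), 362 (WT B16F10), 561 (Lrrc25-/- MC38) and 537 (WT MC38) CPM in cycling cells, against 326 (Lrrc25-/- B16F10), 315 (WT B16F10), 716 (Lrrc25-/- MC38) and 864 (WT MC38) CPM in noncycling cells. It too was higher in cycling cells of both B16F10 libraries and lower in those of both MC38 libraries, with a difference of -1.23 ± 0.24 (SE), adjusted p = 0.0294 (edgeR).

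Gzmb showed the same order, with a difference of log2 folds of -0.81 ± 0.17 (SE), adjusted p = 0.0406 (edgeR), and its levels are given above. Ikzf2, which encodes Helios, differed by -1.04 ± 0.22 (SE), adjusted p = 0.0427 (edgeR), at 159 (Lrrc25-/- B16F10), 114 (WT B16F10), 352 (Lrrc25-/- MC38) and 560.4 (WT MC38) CPM in cycling cells, against 95.3 (Lrrc25-/- B16F10), 75.4 (WT B16F10), 387 (Lrrc25-/- MC38) and 733 (WT MC38) CPM in noncycling cells. Klf2, a transcription factor of quiescent and recirculating T cells, went the other way, at 138 (Lrrc25-/- B16F10), 88.2 (WT B16F10), 135 (Lrrc25-/- MC38) and 199 (WT MC38) CPM in cycling cells, against 519.6 (Lrrc25-/- B16F10), 265 (WT B16F10), 135 (Lrrc25-/- MC38) and 58.1 (WT MC38) CPM in noncycling cells. It was lower in cycling cells in B16F10, level in Lrrc25-/- MC38 and higher in WT MC38, and the difference of folds was 2.49 ± 0.40 (SE), adjusted p = 0.0103 (edgeR). Klf2 had UMIs in 62.7% of members and 42.0% of neutrophils in Lrrc25-/- B16F10, 45.2% of members and 35.7% of neutrophils in WT B16F10, 31.8% of members and 32.3% of neutrophils in Lrrc25-/- MC38, and 30.7% of members and 40.9% of neutrophils in WT MC38. The part of Klf2 RNA from other cells in this difference was not tested.

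Genes of secreted signals and of the matrix also differed between the models. Ccl1, a chemokine for CCR8, differed by -2.91 ± 0.43 (SE), adjusted p = 0.00542 (edgeR), at 106 (Lrrc25-/- B16F10), 872 (WT B16F10), 97.5 (Lrrc25-/- MC38) and 31.5 (WT MC38) CPM in cycling cells, against 18.4 (Lrrc25-/- B16F10), 101 (WT B16F10), 56.0 (Lrrc25-/- MC38) and 65.4 (WT MC38) CPM in noncycling cells, and 1 member held 366 of the 376 UMIs of WT B16F10 cycling cells. Tnf, the inflammatory cytokine, differed by 1.54 ± 0.30 (SE), adjusted p = 0.0287 (edgeR), at 49.1 (Lrrc25-/- B16F10), 30.2 (WT B16F10), 41.7 (Lrrc25-/- MC38) and 23.0 (WT MC38) CPM in cycling cells, against 136 (Lrrc25-/- B16F10), 90.3 (WT B16F10), 36.0 (Lrrc25-/- MC38) and 22.6 (WT MC38) CPM in noncycling cells, lower in cycling cells of both B16F10 libraries and slightly higher in those of both MC38 libraries. Fn1, Thbs1, Ptgs2, Sparc and Inhba, matrix and inflammatory genes of stromal, tumor or myeloid cells, had differences of 3.94, 2.94, 3.90, 3.66 and 4.20. By DESeq2 the calls of Pdcd1, Tnfrsf9, Gzmb, Ikzf2 and Tnf were lost, and without high doublet scores those of Tnfrsf9, Gzmb and Ikzf2. The call of Gzmb and of Tnf was lost without any 1 of the 4 libraries, and that of Ikzf2 without any 1 except Lrrc25-/- MC38. That of Pdcd1 was lost without Lrrc25-/- B16F10, WT B16F10 or WT MC38, that of Tnfrsf9 without Lrrc25-/- B16F10 or WT MC38, and those of Klf2 and Ccl1 without either B16F10 library.

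Between genotypes, the cycling-over-noncycling fold differed for 0 of 8426 genes (0.0%) by edgeR, with 224 genes at an unadjusted p under 0.05, and for 0 genes by DESeq2, with 36 at an unadjusted p under 0.05. With 2 libraries of each genotype, this does not show that the folds were alike.

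**Figure D4:**
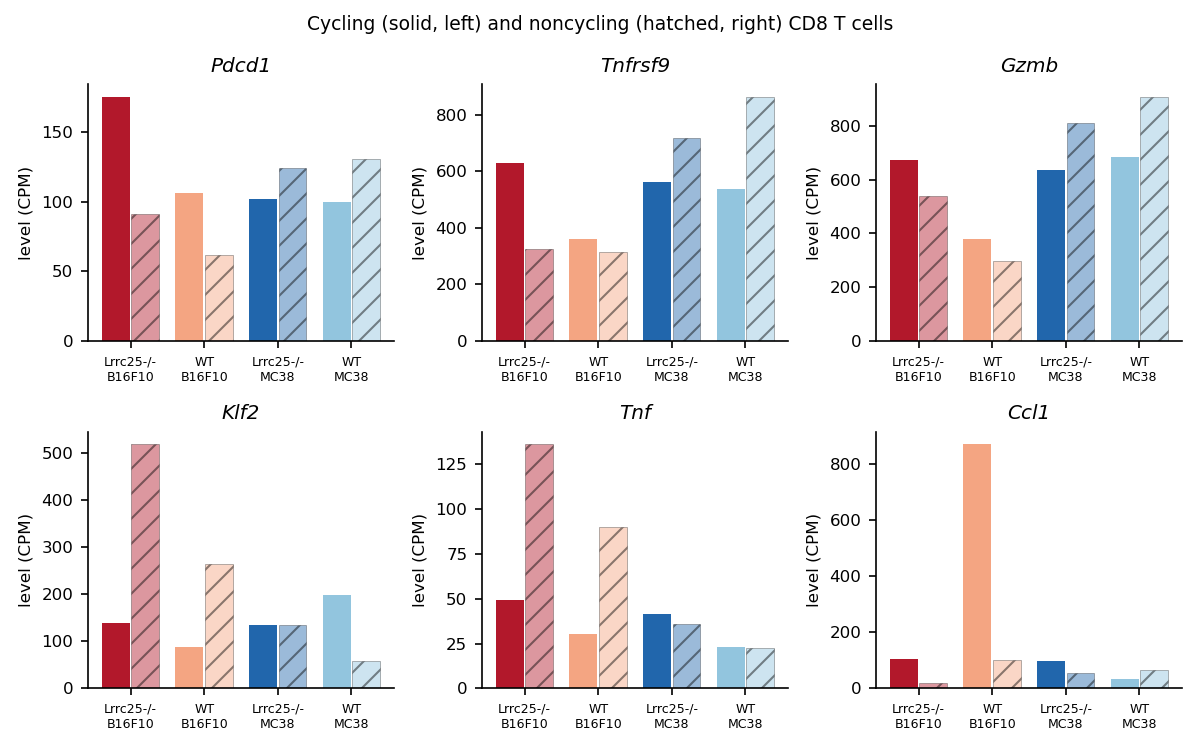
For genes whose cycling-over-noncycling fold differed between tumor models, CPM in cycling and noncycling CD8 T cells is shown for each library on a linear axis from 0, with solid bars for cycling and hatched bars for noncycling cells. Pdcd1, Tnfrsf9 and Gzmb are higher in cycling cells in both B16F10 libraries and lower in both MC38 libraries, and Klf2 is lower in cycling cells in both B16F10 libraries.

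Few genes were called between genotypes in cycling CD8 T cells over both models together. The edgeR test on the 4 sums, with tumor model as a covariate (1 residual degree of freedom), called 12 of 8573 genes (0.14%), 3 higher (0.035%) and 9 lower in Lrrc25-/-, with 405 at an unadjusted p under 0.05, and DESeq2 called 1. The median log2 fold change over all genes was -0.01. With 1 residual degree of freedom, few calls do not show that few genes differed. None of the 12 belonged to the function lists, and Gzmg, of the granzyme cluster, lies outside the cytotoxic list.

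Cxcl2, a chemokine for neutrophils, stood at 937 CPM in Lrrc25-/- and 408 CPM in WT B16F10 tumors, and 539 CPM in Lrrc25-/- and 132 CPM in WT MC38 tumors. It was higher in Lrrc25-/- in both models, with a log2 fold change of 1.59 ± 0.26 (SE), adjusted p = 0.00355 (edgeR, Benjamini-Hochberg). A single member held 485 of the 896 UMIs of Lrrc25-/- B16F10 (54.1%), and without cells of high doublet score the log2 difference within B16F10 was -0.64 and the call was lost. Areg, an epidermal growth factor receptor ligand, stood at 58.5 CPM in Lrrc25-/- and 27.8 CPM in WT B16F10 tumors, and 93.9 CPM in Lrrc25-/- and 21.2 CPM in WT MC38 tumors, with 1.77 ± 0.32 (SE), adjusted p = 0.0119 (edgeR). Inhba, a subunit of activin, stood at 3.14 CPM in Lrrc25-/- and 0 CPM in WT B16F10 tumors, and 109 CPM in Lrrc25-/- and 32.7 CPM in WT MC38 tumors, with 1.81 ± 0.39 (SE), adjusted p = 0.0496 (edgeR). All 3 lost their call when doublet scores were removed.

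Gzmg stood at 0 CPM in Lrrc25-/- and 0 CPM in WT B16F10 tumors, and 9.18 CPM in Lrrc25-/- and 139 CPM in WT MC38 tumors. Its log2 fold change was -3.86 ± 0.47 (SE), adjusted p = 7.2e-05 (edgeR), it rests on MC38 alone since both B16F10 libraries were at 0, and 1 WT MC38 member held 118 of 230 UMIs. It was the 1 call that remained without cells of high doublet score. Plcb1, a phospholipase, stood at 3.14 CPM in Lrrc25-/- and 675 CPM in WT B16F10 tumors, and 11.3 CPM in Lrrc25-/- and 11.5 CPM in WT MC38 tumors in cycling cells, and at 775 CPM in noncycling cells of WT B16F10, so that library stood apart in both classes. Over both models the log2 fold change of Plcb1 was -4.12 ± 0.80 (SE), adjusted p = 0.0209 (edgeR), and the 2 MC38 libraries stood level. Cxcl10, an interferon-induced chemokine, stood at 50.2 CPM in Lrrc25-/- and 183 CPM in WT B16F10 tumors, and 53.7 CPM in Lrrc25-/- and 100.0 CPM in WT MC38 tumors, with -1.36 ± 0.26 (SE), adjusted p = 0.0209 (edgeR), and among cells with 0 C1q UMIs its log2 difference was 2.45. Without high doublet scores its MC38 difference was 1.04. A single WT B16F10 member held 55 of its 79 UMIs.

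Pmel, Ptgds and Tyrp1, pigment cell genes of the melanoma line, were 3 of the 9 lower genes, at log2 fold changes of -2.13, -1.98 and -1.76, and were at 0 in both MC38 libraries. Among cells with 0 C1q UMIs their differences were 0.45, 0.91 and 0.78. Pmel and Tyrp1 are themselves among the 8 melanoma markers, whose sum given above was lower in Lrrc25-/- than in WT B16F10 members. Their fall is therefore part of that lower sum and no separate observation. Ptgds is not among the markers. Hist1h2bc, a histone gene whose transcript can be polyadenylated, stood at 83.6 CPM in Lrrc25-/- and 229.7 CPM in WT B16F10 tumors, and 29.0 CPM in Lrrc25-/- and 58.8 CPM in WT MC38 tumors, with -1.29 ± 0.25 (SE), adjusted p = 0.0209 (edgeR), lower in Lrrc25-/- in both models. Cpe and Galnt18, an enzyme of peptide processing and a glycosyltransferase, completed the list at -2.51 and -1.72.

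Within each model, 1 library of each genotype allowed a rule of size only, of at least 20 CPM in either library, at least 50 UMIs over both and at least a 1.5-fold difference. In B16F10, 575 of 3026 measured genes (19.0%) passed, 391 (12.9%) higher and 184 (6.08%) lower in Lrrc25-/-. In MC38, 903 of 6485 (13.9%) passed, 363 (5.6%) higher and 540 (8.33%) lower. Of the 2962 genes measured in both models, 30 (1.01%) were higher in both, 9 (0.304%) lower in both and 52 (1.76%) past the limit in opposite directions. The WT B16F10 side rests on 31 cells and 430958 UMIs, the smallest of the 4. The rule was not applied to noncycling cells, so a difference named below need not be particular to cycling cells.

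In B16F10, many cytotoxic and checkpoint genes were higher in Lrrc25-/- members. Of 10 measured cytotoxic genes 7 were higher and 1 lower (median log2 difference 0.79, against 0.07 over all measured genes), of 7 checkpoint genes 5 were higher and 0 lower (median 0.69), and of 26 S phase genes 8 were higher and 0 lower (median 0.36), where 12.9% of all measured genes were higher. The effector transcription factors were at that background, with 1 of 8 higher and 0 lower (median 0.35). Gzmb stood at 672 CPM in Lrrc25-/- and 381 CPM in WT members, a ratio of 1.77 (1.49 to 2.11). Ifng, the cytokine interferon gamma, stood at 213 CPM in Lrrc25-/- and 83.5 CPM in WT members, a ratio of 2.55 (1.78 to 3.75). Il2rb, the beta chain of the IL-2 and IL-15 receptors, stood at 332 CPM in Lrrc25-/- and 144 CPM in WT members, a ratio of 2.31 (1.76 to 3.08). All 3 intervals lie above 1, but they count each UMI as independent and leave out the spread between cells. Gzmb was also higher in Lrrc25-/- than in WT noncycling cells of B16F10, at the levels given above.

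For Rgs16, a regulator of G protein signalling, the ratio was 2.76 (1.98 to 3.92), and for Pdcd1 it was 1.65 (1.18 to 2.33). Gzmf was at 0 UMIs in WT and 179 CPM in Lrrc25-/- B16F10 members, at least 25.7-fold higher against a floor of 3 counts, but 4 cells held all its UMIs. Gzma ran the other way, at 289.5 CPM in Lrrc25-/- and 506 CPM in WT members, a ratio of 0.572 (0.478 to 0.687). All 4 macrophage markers measured and all 6 melanoma markers measured were lower in Lrrc25-/- (medians -0.99 and -0.97). Of 7 interferon-stimulated genes 3 were lower and 0 higher (median -0.50), where 6.08% of all measured genes were lower. The part of that other RNA in the higher levels of T cell genes was not tested.

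Among the lower genes of Lrrc25-/- B16F10 members were genes of B cells and myeloid cells. Jchain, an antibody joining protein, had a log2 difference of -9.79, and 1 WT member held 776 of 780 UMIs. Plcb1 (-7.35), Ccl17 (-4.59), Ccl1 (-3.04), Ccl6 (-2.69) and Mmp12 (-2.58) followed. For Ccl1, 1 WT member held 366 of 376 UMIs, and the difference was 8.08 among cells with 0 C1q UMIs and 2.30 among cells with at least 3 UMIs of Mki67 and Top2a. Among the higher genes, S100a8 and S100a9, neutrophil genes at 0 in WT members, were at least 17.0-fold and 11.6-fold higher against the floor, and 1 member held 71 of 113 S100a8 UMIs. The other leading higher genes were Setbp1 (2.90), Camk1d (2.82), Mpp7 (2.77), Epas1 (2.65) and Nr3c1 (2.27), the glucocorticoid receptor. All 5 were lowest in WT B16F10 among the 4 libraries, in members and in noncycling cells alike, so that library stood apart for them.

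In MC38, G2/M genes were past the limit in 1 direction only. Of 39 G2/M genes 0 were higher and 9 lower in Lrrc25-/- members (median -0.28, against -0.04 over all measured genes, of which 8.33% were lower). S phase genes were near that background, with 0 of 33 higher and 2 lower (median -0.15), and of 14 nucleotide synthesis genes 0 were higher and 2 lower (median -0.25). Members at the limit of 2 UMIs of Mki67 and Top2a, whose G2/M level was lower, made up 27.8% in Lrrc25-/- and 15.8% in WT MC38 tumors. The part of this in the G2/M differences was not tested. Top2a stood at 812 CPM in Lrrc25-/- and 1092 CPM in WT members, and Mki67 at 686 CPM in Lrrc25-/- and 682 CPM in WT members. Both genes chose the cells, so these levels are a description only. Early genes were higher in 5 of 12 (median 0.49) and naive and memory genes in 3 of 11 (median 0.45), with 0 lower in either list. Of all measured genes, 5.6% were higher. Ccr7 stood at 253 CPM in Lrrc25-/- and 100.0 CPM in WT members, a ratio of 2.53 (2.10 to 3.06). Fosb, an AP-1 subunit, had a ratio of 2.003 (1.65 to 2.44), and Ccl5 one of 3.50 (3.12 to 3.94). Ccl5 was also higher in Lrrc25-/- than in WT noncycling cells of MC38, at the levels given above.

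Granzymes of MC38 divided. Gzma stood at 182 CPM in Lrrc25-/- and 12.1 CPM in WT members, a log2 difference of 3.80, and 13 and 4 cells held its UMIs. Gzmf stood at 1011 CPM in Lrrc25-/- and 1864 CPM in WT members, a ratio of 0.542 (0.509 to 0.578), held by 53 and 75 cells. Gzmd and Gzme were lower too, with ratios of 0.395 (0.343 to 0.454) and 0.395 (0.328 to 0.474). Tox stood at 165 CPM in Lrrc25-/- and 297 CPM in WT members, a ratio of 0.553 (0.471 to 0.648). Gzmb and Prf1 had ratios of 0.929 (0.850 to 1.02) and 0.726 (0.640 to 0.822), short of the limit.

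Of the other genes with the largest MC38 differences, Cxcl3 (3.48), Ccl22 (3.29), Nos2 (2.91), Cybb (2.59) and Itgam (2.22), which myeloid cells use, were higher in Lrrc25-/- members. They moved with the macrophage markers, of which 3 of 4 measured were higher (median 1.08), against 5.6% of all measured genes. Col8a1 (-2.16), Prrx1 (-2.06) and Ankrd1 (-1.88), genes of stromal or tumor cells, were lower. The macrophage marker sum thus ran in opposite directions in the 2 models, lower in Lrrc25-/- B16F10 and higher in Lrrc25-/- MC38 members.

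Of the 2962 genes measured in both models, 30 (1.01%) were higher in both and 9 (0.304%) lower in both, against 52 (1.76%) in opposite directions. Some of those higher in both were T cell signalling genes. Whether such genes were more frequent there than among all genes was not tested. Nor was it tested whether the models shared more genes than unrelated lists of these sizes would. Cd28 stood at 144 CPM in Lrrc25-/- and 83.5 CPM in WT B16F10 tumors, and 244 CPM in Lrrc25-/- and 134 CPM in WT MC38 tumors, a B16F10 ratio of 1.73 (1.19 to 2.57) and an MC38 ratio of 1.82 (1.53 to 2.16). Tnfaip3, the NF-kappaB inhibitor A20, stood at 210.1 CPM in Lrrc25-/- and 132 CPM in WT B16F10 tumors, and 317 CPM in Lrrc25-/- and 207 CPM in WT MC38 tumors, with ratios of 1.59 (1.18 to 2.17) and 1.53 (1.33 to 1.77) in B16F10 and MC38. Both were higher in Lrrc25-/- members of each model with counting intervals above 1, which leave out the spread between cells. Their adjusted p in the edgeR test over both models were 0.302 and 0.772, so neither passed.

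Malt1, a signalling protease of antigen receptors, had a B16F10 ratio of 1.77 (0.971 to 3.45) and an MC38 ratio of 1.80 (1.51 to 2.15). Nr4a3, induced by T cell receptor signals, had 1.64 (0.948 to 3.00) and 1.64 (1.28 to 2.11), and Cish, a brake on cytokine and receptor signals, had 1.83 (1.01 to 3.56) and 2.02 (1.45 to 2.83) in the same order of models. Also higher in both were Cd6, Sla, Dgkz, Tnf, Bcl2a1d, Tsc22d3, Mapkapk3, Smarcd2 and Gins4, while Arg1, Clec4d, Cxcl1 and Thbs1, used by myeloid cells, were in the same group. Cxcl1 was at -1.42 in B16F10 without high doublet scores and at -0.30 in MC38 with at least 3 UMIs of Mki67 and Top2a, and Sla was at -0.032 in MC38 with cells thinned. Among the 9 lower in both, the interferon-stimulated gene Isg15 had ratios of 0.417 (0.261 to 0.665) and 0.594 (0.417 to 0.838), and Anxa1, which limits inflammation, had 0.307 (0.186 to 0.4996) and 0.544 (0.445 to 0.664). The metallothionein Mt2 and the protease gene Ctsl were lower in both as well. Among cells with 0 C1q UMIs the log2 differences turned positive for Anxa1 (0.37) and Ctsl (1.01) in MC38 and for Mt2 (1.503) in B16F10.

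**Figure D5:**
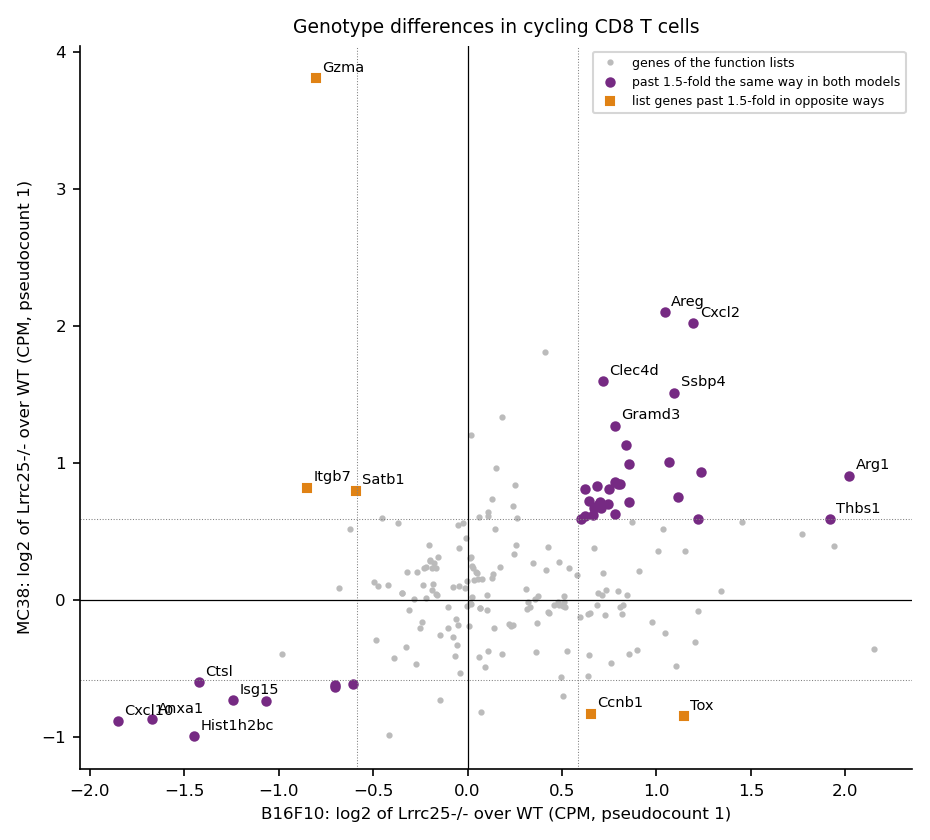
Grey points are 168 genes of the function lists, placed by their log2 difference Lrrc25-/- over WT in cycling CD8 T cells of B16F10 (x axis) and MC38 (y axis), CPM with a pseudocount of 1. Purple points are the 39 genes past 1.5-fold (dotted lines) the same way in both models, in or outside the lists, and orange squares the 5 list genes past it in opposite ways. Areg and Cxcl2 lie at the upper right and Cxcl10, Isg15 and Hist1h2bc at the lower left, Tox and Ccnb1 are above 0 in B16F10 and below 0 in MC38, and Gzmf is left out because WT B16F10 was at 0 UMIs.

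More genes were called between tumor models, which also differ in day and host sex. The same edgeR fit called 4113 of 8573 genes (48.0%), 2052 (23.9%) higher and 2061 (24.0%) lower in MC38, with a median log2 fold change of 0.06. Chemokine genes were lower in MC38 in 9 of 10 (median -2.41), glycolysis genes in 12 of 13 (median -1.68), respiratory chain genes in 17 of 18 (median -1.53) and nucleotide synthesis genes in 9 of 15 (median -0.82), with 0 higher in these 4 lists. Cytokine receptor genes were higher in 6 of 13 and lower in 0 (median 0.75). The S phase list had 4 higher and 13 lower, and the G2/M list 12 higher and 12 lower.

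Xcl1 stood at 294 CPM in Lrrc25-/- and 183 CPM in WT MC38 tumors, against 1175 CPM in Lrrc25-/- and 993 CPM in WT B16F10 tumors. Its log2 fold change was -2.75 ± 0.26 (SE), adjusted p = 8.47e-09 (edgeR), and the models did not overlap. Gzmf stood at 1011 CPM in Lrrc25-/- and 1864 CPM in WT MC38 tumors, against 179 CPM in Lrrc25-/- and 0 CPM in WT B16F10 tumors, with 3.89 ± 0.64 (SE), adjusted p = 2.04e-05 (edgeR), although it was at 0 UMIs in WT B16F10, which makes the fitted fold depend on the prior count. Irf8, a transcription factor that supports effector differentiation of CD8 T cells, stood at 777 CPM in Lrrc25-/- and 761.5 CPM in WT MC38 tumors, against 147 CPM in Lrrc25-/- and 114 CPM in WT B16F10 tumors, with 2.03 ± 0.24 (SE), adjusted p = 4.67e-07 (edgeR). Bach2, which restrains effector differentiation, stood at 389 CPM in Lrrc25-/- and 271 CPM in WT MC38 tumors, against 43.9 CPM in Lrrc25-/- and 20.9 CPM in WT B16F10 tumors, with 2.82 ± 0.28 (SE), adjusted p = 1.98e-08 (edgeR). Both were higher in each MC38 library than in either B16F10 library.

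Cytotoxic genes went both ways, with 5 higher and 5 lower in MC38. Gzma, a trypsin-like granzyme, and Gzmk, a granzyme of effector memory cells, had log2 fold changes of -3.18 ± 0.57 (SE), adjusted p = 5.85e-05, and -2.45 ± 0.31 (SE), adjusted p = 7.51e-07 (edgeR). Among cells with 0 C1q UMIs the difference for Gzma was 1.504. Prf1 had 1.67 ± 0.27 (SE), adjusted p = 1.66e-05 (edgeR). Tbx21, Zeb2 and Runx3, which drive effector differentiation, had 2.02, 1.77 and 1.43, while Batf and Id3, an AP-1 factor and an inhibitor of DNA binding, had -2.34 and -4.57. Receptor chains Il18rap, Il12rb2 and Il18r1 had 1.94, 1.60 and 1.44.

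Among cell cycle regulators, Cdk6, a G1 kinase, stood at 295 CPM in Lrrc25-/- and 316 CPM in WT MC38 tumors, against 73.2 CPM in Lrrc25-/- and 46.4 CPM in WT B16F10 tumors, with 1.80 ± 0.26 (SE), adjusted p = 4.34e-06 (edgeR), and Cdk2, the S phase kinase, had -2.31 ± 0.45 (SE), adjusted p = 0.000157 (edgeR). Cenpf and Aspm, large proteins of the kinetochore and spindle, had 2.31 and 2.89, while Tyms, which makes thymidylate, had -1.48. Gapdh, an enzyme of glycolysis, stood at 1525 CPM in Lrrc25-/- and 1232 CPM in WT MC38 tumors, against 3383 CPM in Lrrc25-/- and 3778 CPM in WT B16F10 tumors, with -1.92 ± 0.24 (SE), adjusted p = 7.22e-07 (edgeR). Ndufa4, a respiratory chain subunit, stood at 225 CPM in Lrrc25-/- and 221 CPM in WT MC38 tumors, against 903 CPM in Lrrc25-/- and 889 CPM in WT B16F10 tumors, with -2.54 ± 0.25 (SE), adjusted p = 1.61e-08 (edgeR). Melanoma RNA, UMI depth, day and host sex differ along the same split, and their parts cannot be told apart.

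T cell receptor beta variable (Trbv) genes were read in few members. A leading Trbv gene could be given to 8 members of Lrrc25-/- and 3 of WT B16F10 tumors, and to 42 of Lrrc25-/- and 29 of WT MC38 tumors. In MC38, Trbv12-2 led in the Lrrc25-/- library with 28.6% of assigned members (15.7 to 44.6%), against 24.3% of 70 assigned noncycling cells (14.8 to 36.0%). In WT MC38, Trbv13-1 led with 31.0% of members (15.3 to 50.8%), and Trbv12-2 led the 30 assigned noncycling cells with 26.7% (12.3 to 45.9%). These libraries read the 3′ end of transcripts and pool 3 mice, so the shares are a description of the gene segments seen and give no clones.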

How the data were processed

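Raw UMI counts per gene and barcode were deposited by the authors for 4 pooled libraries (SeekOne DD 3′ kit, per the labels; build mm10, per the submitters' processing notes). Aligner, counter and cell caller: not given in the sources used here. Libraries held 10490 to 18545 barcodes and 105338548 to 138841749 UMIs over 32285 features. Cells were read with scanpy 1.11.5 under Python 3.11.15, and doublets were scored with Scrublet and removed only in an alternative (the top 0.5% per 1000 cells). UMIs were summed per library and class. Sums were tested with edgeR 4.0.16 under R 4.3.3 (TMM, filterByExpr, quasi-likelihood, Benjamini-Hochberg, threshold 0.05), with DESeq2 1.42.0 as an alternative. The scripts were tested on simulated data. Within a model, CPM used a pseudocount of 1. A member at 0 was given a floor of 3 counts. Share intervals are Clopper-Pearson, ratios of shares use the log-normal interval, and ratios of counts use the exact conditional one. The cells, gene lists and tests were chosen with earlier results of these data known. Named genes were up to 4 called members of each list by size of change, the 10 highest and 10 lowest called genes of each fit, and all genes of the size rule shared by both models; further list members were chosen after their values were seen. Values of some genes are not reported here.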

Additional observations from a re-analysis of the deposited data

Results flagged for a closer look

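The fold of cycling over noncycling CD8 T cells differed between tumor models, by edgeR's test of the interaction, for 20 named genes. The differences of log2 folds, MC38 minus B16F10, were negative for Ccl1 (-2.91), Nrgn (-1.80), Magohb (-1.41), Pdcd1 (-1.33), Tnfrsf9 (-1.23), Ikzf2 (-1.04), Sdf4 (-1.04, but 0.40 among cells with 0 C1q UMIs) and Gzmb (-0.81). They were positive for Inhba (4.20), Ckap2l (4.08), Pmp22 (4.02), Fn1 (3.94), Ptgs2 (3.90), Sparc (3.66), Cryab (3.1), Cxcl1 (3.09), Il1a (3.08), Thbs1 (2.94), Klf2 (2.49) and Tnf (1.54).

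In cycling CD8 T cells, 6 genes of the function lists differed between genotypes past the rule of size in opposite directions in the 2 models, each model with 1 library per genotype. Over all genes measured in both models this held for 52 of 2962 (1.76%), and 168 list genes other than Gzmf were measured in both. The difference between models was not tested. The log2 difference, Lrrc25-/- over WT, was -0.85 in MC38 and 1.14 in B16F10 for Tox, -0.83 and 0.66 for the mitotic cyclin Ccnb1, 3.80 and -0.80 for Gzma, 0.82 and -0.85 for the integrin Itgb7, and 0.80 and -0.59 for Satb1, in the same order of models. For Gzmf the MC38 value was -0.88, and the B16F10 value of 7.49 depends on the pseudocount, since WT B16F10 members had 0 UMIs.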

How the results depend on the processing

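The counts of 31 to 202 members per library limit what can be seen. Lists and members were described with 1 pooled library per genotype and model. The labels give no replicate numbers, so no fit used them. The cycling fits pair both classes of a library. Leaving out a library left no residual degrees of freedom in the genotype and tumor model fits, so these were not run. Under alternatives, 2113 values of single genes stayed the same, 301 lost the call, 49 moved and 20 reversed. For tested genes, the same means that direction and call were kept. For genes of the size rule (308 such values in B16F10 and 326 in MC38) it means a shift within counting error, and the 1.5-fold limit was not checked again. Genes not tested or measured under an alternative were not counted. The cause was not tested, though thinning and C1q limits leave fewer UMIs and cells.

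The 12 genotype calls over both models became 1 by DESeq2, 48 with no low count filter, 3 with cells thinned to 1000 UMIs, 1 without high doublet scores, 5 with 0 C1q UMIs and 26 with at least 3 UMIs of Mki67 and Top2a. The 4113 tumor model calls became 1472 by DESeq2, 580 thinned and 563 with 0 C1q UMIs. The 1793 cycling calls became 1194 by DESeq2, 330 thinned, 609 with 0 C1q UMIs and 977 (without Lrrc25-/- MC38) to 1368 with 1 library left out. The 59 calls of the interaction with model became 25 by DESeq2, 221 with no filter, 17 thinned and 21 (without Lrrc25-/- B16F10) to 92 (without Lrrc25-/- MC38), with 39 without WT B16F10. The 0 calls of the interaction with genotype became 15 with no filter, 1 with 0 C1q UMIs and 0 to 7 with 1 library left out. By size, a 2-fold limit gave 184 genes in B16F10 and 198 in MC38, and thinning gave 55 and 198.

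The ratio of cycling shares, Lrrc25-/- over WT, was 2.13 in B16F10 and 0.522 in MC38 with 0 C1q UMIs, and 0.757 in MC38 with at least 1 UMI of Mki67 and Top2a. The S to G2/M ratio in Lrrc25-/- B16F10 was 0.547 thinned, 0.643 without high doublet scores and 0.564 with 0 C1q UMIs, and 0.244 with 0 C1q UMIs in WT B16F10. In Lrrc25-/- MC38 it was 0.581 thinned, 0.602 with 0 C1q UMIs and 0.521 with at least 3 UMIs, and in WT MC38 it was 0.514 and 0.463 under the last 2 settings. Requiring 2 UMIs of 1 Trbv gene gave a leading share of 100.0% in WT B16F10 (1 cell) and 66.7% in WT MC38, and no value in Lrrc25-/- B16F10.

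With 0 C1q UMIs these log2 differences reversed: over both models Cxcl10 (2.45), Pmel (0.45), Ptgds (0.91) and Tyrp1 (0.78); in B16F10 Ccl1 (8.08), Gramd3 (-1.16), Mt2 (1.503) and Pmel (0.11); in MC38 Anxa1 (0.37), Ctsl (1.01) and Cxcl10 (2.29); between models Gzma (1.504), and Sdf4 (0.40) in the interaction. With at least 3 UMIs Ccl1 reversed in B16F10 (2.30) and Cxcl1 in MC38 (-0.30). Thinned, Fam169b and Sla were each at -0.032 in MC38. Without high doublet scores Cxcl1 (-1.42) and Cxcl2 (-0.64) reversed in B16F10 and Cxcl10 (1.04) in MC38.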
